A study of Mus musculus with 6 samples.

Results

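The integrated stress response was followed through 10 named genes of the ATF4 pathway in mouse marrow cells that carry mutations of CBL and RUNX1, which the study treats as a clone of myelodysplastic syndrome (MDS). The members were taken by symbol (Atf4, Atf5, Ddit3, Asns, Trib3, Chac1, Sesn2, Psat1, Phgdh and Ppp1r15a), and all 10 were found among the 28987 genes of the deposited table. In this response, kinases that sense different stresses phosphorylate the translation factor eIF2alpha. General protein synthesis slows, while the mRNA of the transcription factor ATF4 is translated more, so that much of the control of ATF4 lies in translation and is not seen in RNA. ATF4 raises genes of amino acid supply and redox defence, and under long stress also genes of cell death and of feedback. Mitochondrial damage reaches the same pathway through the OMA1 and DELE1 relay and the kinase HRI, which in red cell precursors also matches globin synthesis to heme.

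The 6 libraries came from 4 groups of C57BL/6 mice, all from the mutant clone, with no unmutated group among them. Ly6G+ myeloid cells were sorted on Ly6G, found on the surface of neutrophils as they mature, and there were 2 libraries with Mdivi-1 and 2 with vehicle. Hematopoietic stem and progenitor cells (HSCPs), selected through the stem cell factor receptor CD117, gave 1 library with Mdivi-1 and 1 with vehicle. Mdivi-1 was introduced as a compound that blocks Drp1, the GTPase that divides mitochondria. The labels give neither the alleles, the dose, the duration of treatment nor the age of the animals, and name the marrow as from individual mice without saying which mouse gave which library. The p-values therefore cover only the spread from library to library, which may be technical.

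Levels are given as TPM, the proportion of transcripts that a gene makes up in a library after correction for its length, and can thus be compared between genes. TPM holds no read totals and the depth is unknown. The sorts matched their markers: Ly6g stood between 642 and 840 TPM in Ly6G+ libraries and at 90.1 and 187 TPM in HSCPs, and Kit, which encodes CD117, between 8.73 and 14.1 TPM in Ly6G+ libraries and at 64.9 and 72.2 TPM in HSCPs. Each population also held markers of the other. Mpo, an enzyme of early granules, was at 661 to 727 TPM in Ly6G+ libraries and at 6270 and 6030 TPM in HSCPs, and the neutrophil genes S100a8 and S100a9 together took 19.69% to 20.95% of TPM in Ly6G+ libraries and 7.06% and 7.7% in HSCPs. Dnm1l, which encodes Drp1, was at 23.0 and 24.6 TPM in Ly6G+ cells with Mdivi-1 and at 24.3 and 23.1 TPM with vehicle (limma adjusted p = 0.975).

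ATF4 binds with C/EBP-family partners to composite elements whose core reads TGATGNAA. Both strands of RefSeq promoter windows (GRCm38.p6, 250 bases before to 50 after a start site) were searched for these letters. All 10 members had a window, 12 windows in all, since Atf5 and Psat1 had 2 each. A match was found for 3 members, Asns, Chac1 and Trib3, while 3.97% of all 32851 windows and 4.51% of genes held one. Among the other pathway genes listed for this work, 10 of 60 with a window held a match, among them Atf3, Slc7a11 and Nupr1. The stretches around the matches before the RefSeq start sites of Asns and Chac1 are shown. These genes lay on opposite sides of 0 under treatment in Ly6G+ cells, as described further on. Capitals mark the match, read 5′ to 3′ on the strand of the gene.
Asns, chr6:7693210-7693258, minus strand: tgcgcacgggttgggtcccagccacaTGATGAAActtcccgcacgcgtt
Chac1, chr2:119351023-119351082, plus strand: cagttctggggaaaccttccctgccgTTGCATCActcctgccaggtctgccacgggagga
In Asns the match began 23 bases before the RefSeq start site, and in Chac1 it lay on the opposite strand and began 193 bases before it. The GENCODE M21 entry of Asns reaches 7693254 on the minus strand, so by that annotation the Asns match lies inside the gene. The match of Trib3 began at base 15 after the RefSeq start site, but lies before the start of the GENCODE M21 entry. A match is a description of these letters and not a measured binding site.

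Atf4 was the most abundant member in both Ly6G+ groups and in vehicle HSCPs, and Phgdh in Mdivi-1 HSCPs. In Ly6G+ cells with Mdivi-1 the mean levels ran from Atf4 (90.3 TPM) through Psat1 (45.0), Phgdh (42.8), Ddit3 (26.5), Sesn2 (16.8), Atf5 (14.3), Asns (9.51) and Ppp1r15a (5.46) to Chac1 (2.81) and Trib3 (2.43). Psat1 and Phgdh were not separated beyond their spread there (SD 0.455 and 7.71 TPM, n = 2). In vehicle Ly6G+ cells Asns (5.43 TPM) stood below Ppp1r15a (5.95), and Ddit3 (23.3) and Atf5 (23.1) were not separated beyond the spread of Ddit3 (SD 5.03 TPM, n = 2). In HSCPs Phgdh (227 and 161 TPM with Mdivi-1 and vehicle) and Psat1 (143 and 100 TPM) stood beside Atf4 (193 and 185 TPM) at the top, and every other member was at 33.6 TPM or less.

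**Figure D1:**
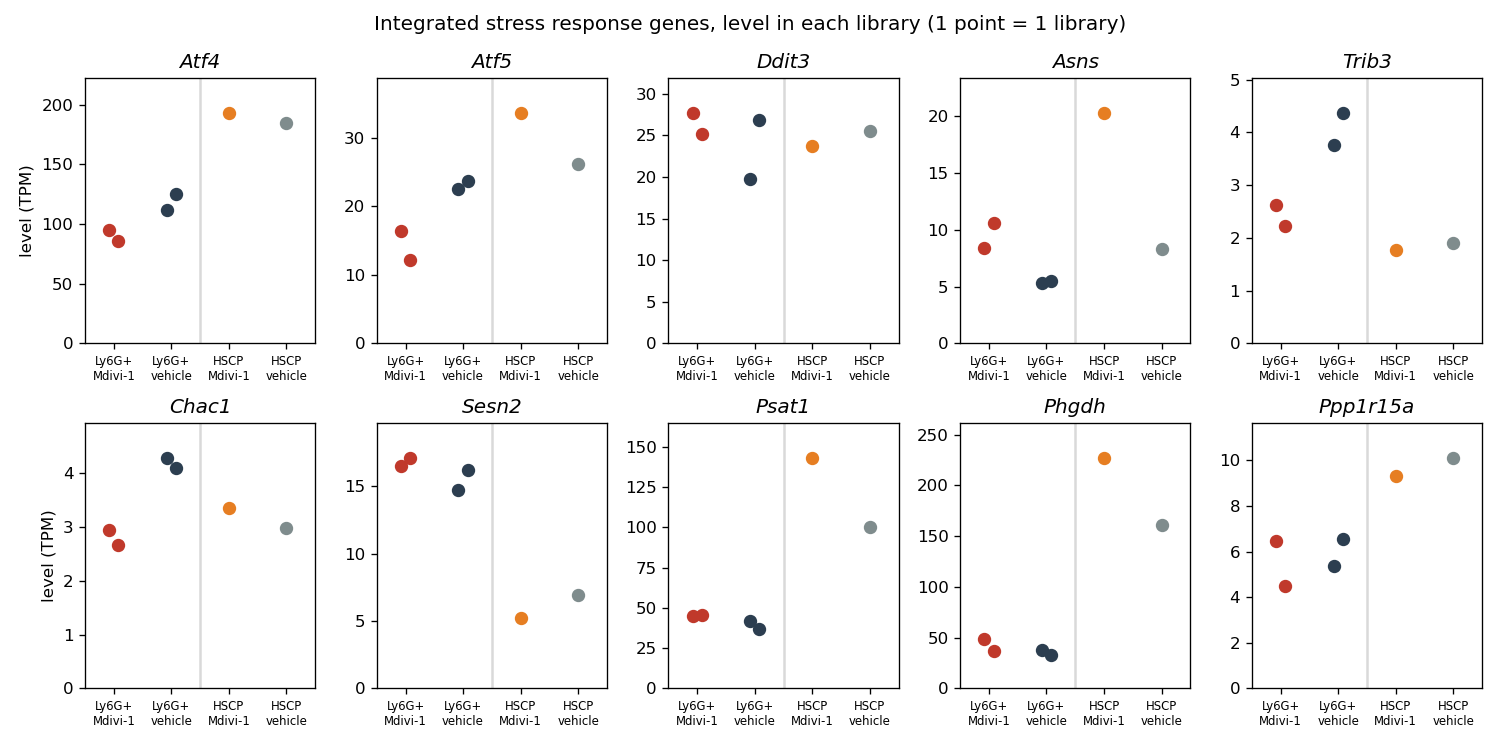
Level in TPM (vertical axes, each from 0) of the 10 genes in every library, with 1 point per library and the groups Ly6G+ Mdivi-1, Ly6G+ vehicle, HSCP Mdivi-1 and HSCP vehicle from left to right. Atf4, Atf5, Trib3 and Chac1 lie lower in both Mdivi-1 than in both vehicle libraries of Ly6G+ cells, and Asns, Sesn2 and Psat1 lie higher. Phgdh and Psat1 stand far higher in HSCPs than in Ly6G+ cells.

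The first comparison asked whether Mdivi-1 moved the pathway in Ly6G+ cells. No member passed the test: 0 of 10 were called higher and 0 lower (limma, Benjamini-Hochberg adjusted p over 11775 genes, threshold 0.05), against 2.46% of all genes called higher and 4.24% lower, 6.7% in either direction. The members did not lean one way, with a median log2 change of 0 against -0.05 over all genes tested. The nearest to the threshold were Asns on the higher side and Atf4 and Atf5 on the lower side. An unadjusted p under 0.05 was found for 5 members (Asns, Atf4, Atf5, Trib3 and Chac1) and for 25.7% of all genes. In 7 members the libraries of the groups did not overlap, 3 higher and 4 lower. Over all genes the groups did not overlap in 57.7%, with 21% higher and 36.7% lower.

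Among the transcription factors, Atf4 (chromosome 15, 80255184 to 80257541 in mm10) had 94.6 and 86.1 TPM with Mdivi-1, against 112 and 125 TPM with vehicle. Both Mdivi-1 libraries lay below both vehicle libraries. The log2 change was -0.39 (95% confidence interval -0.60 to -0.17; limma adjusted p = 0.064). Atf5, a paralog of Atf4 that is also under translational control, had 16.4 and 12.2 TPM with Mdivi-1, against 22.5 and 23.7 TPM with vehicle. Its log2 change of -0.67 (-1.04 to -0.30) did not pass either (limma adjusted p = 0.0652). Atf5 overlaps exons of Nup62 and Il4i1 on the opposite strand over 164 bases, and strand was not stated, so a few of its reads may belong to them. The change of Atf5 ranged from -0.87, without Mdivi-1 replicate 1, to -0.47, without Mdivi-1 replicate 2, when 1 library was left out. In such fits the 1 library left in its group is assumed to vary like the 2 of the other group. With every library kept, Atf5 passed only under a filter of 5 TPM (limma adjusted p = 0.046), and was at 0.149 without a filter (limma adjusted p). Ddit3 encodes CHOP, the factor of the death-prone late phase. It had 27.7 and 25.2 TPM with Mdivi-1, against 19.8 and 26.9 TPM with vehicle. The groups overlapped, and the log2 change was 0.19 (-0.21 to 0.58; limma adjusted p = 0.499). Ddit3 shares 186 exonic bases with Gm4189 and Mars on the opposite strand and with a further Ddit3 entry on its own strand.

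Among the amino acid enzymes, Asns, which makes asparagine (chromosome 6, 7675169 to 7693254), had 8.41 and 10.6 TPM with Mdivi-1, against 5.34 and 5.52 TPM with vehicle. The groups did not overlap, and its log2 change of 0.70 (0.35 to 1.05) just missed the threshold (limma adjusted p = 0.0511). It passed when TPM was rescaled by median-of-ratios (0.76, limma adjusted p = 0.0471) or by the upper quartile (0.75, limma adjusted p = 0.0489). Over its 12 alternatives the adjusted p of Asns ranged from 0.0372 to 0.199 with limma. Psat1, the aminotransferase of serine synthesis, had 44.7 and 45.3 TPM with Mdivi-1, against 41.7 and 36.8 TPM with vehicle (log2 change 0.20, limma adjusted p = 0.217). Phgdh, which opens serine synthesis, had 48.2 and 37.3 TPM with Mdivi-1, against 37.9 and 32.6 TPM with vehicle. Its groups overlapped (log2 change 0.26, limma adjusted p = 0.32). Only 43.7% of the 31-mers of Phgdh are found in no other annotated gene, so its reads are shared with related sequences and its level is less certain.

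The feedback and effector genes gave no call. Trib3, a pseudokinase that restrains ATF4 and CHOP, had 2.63 and 2.22 TPM with Mdivi-1, against 3.76 and 4.37 TPM with vehicle (log2 change -0.56, 95% confidence interval -0.95 to -0.18; limma adjusted p = 0.0984). Chac1, which degrades glutathione, had 2.94 and 2.67 TPM with Mdivi-1, against 4.28 and 4.09 TPM with vehicle (-0.45, -0.78 to -0.11; limma adjusted p = 0.115). In both genes each Mdivi-1 library lay below each vehicle library, at levels of a few TPM. Sesn2, a leucine sensor that dampens mTORC1, had 16.5 and 17.1 TPM with Mdivi-1, against 14.7 and 16.2 TPM with vehicle (log2 change 0.12, limma adjusted p = 0.447). Ppp1r15a encodes GADD34, which brings the phosphatase back to eIF2alpha and ends the response. It had 6.45 and 4.48 TPM with Mdivi-1, against 5.36 and 6.54 TPM with vehicle (log2 change -0.12, -0.61 to 0.37; limma adjusted p = 0.747). Its groups overlapped, and the interval spans 0 widely.

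Relative to Atf4 within the same library, Asns stood at 8.9% and 12.3% of the Atf4 level with Mdivi-1 and at 4.76% and 4.42% with vehicle in Ly6G+ cells, and Ddit3 at 29.3% in both Mdivi-1 libraries and at 17.7% and 21.5% with vehicle. The ratios of Sesn2, Psat1 and Phgdh were also higher in both Mdivi-1 libraries than in both vehicle libraries. Trib3, in contrast, stood at 2.79% and 2.58% with Mdivi-1 and at 3.36% and 3.5% with vehicle. The ratios of Atf5 and Chac1 were lower too, and those of Ppp1r15a overlapped. Atf4 itself was lower in both Mdivi-1 libraries, so a ratio to it can rise without a rise of the gene. The TPM values of Ddit3 and of Phgdh overlapped between the groups. These ratios are descriptions from the same values and were not tested.

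Of the further pathway genes, 69 of 78 listed were tested in Ly6G+ cells, and 2 rose and 5 fell, 2.9% and 7.25% of them. Both shares were within a few percentage points of those of all genes. Ddit4 (REDD1), an inhibitor of mTORC1, had 11.7 and 11 TPM with Mdivi-1, against 5.7 and 6.22 TPM with vehicle (log2 change 0.83, limma adjusted p = 0.0195). Hspa9, the mitochondrial Hsp70 chaperone, had 66.2 and 62.8 TPM with Mdivi-1, against 49.5 and 49.9 TPM with vehicle (0.37, limma adjusted p = 0.0377). These were the genes that rose. The falls included Atf3, a stress-induced factor and ATF4 target, at 2.23 and 2.72 TPM with Mdivi-1, against 5.26 and 5.78 TPM with vehicle (-0.91, limma adjusted p = 0.0335). Jun, a bZIP factor that can pair with ATF-family proteins, had 10.3 and 10.4 TPM with Mdivi-1, against 18.1 and 18.2 TPM with vehicle (-0.75, limma adjusted p = 0.0129). The other falls were in Mthfd2, a mitochondrial folate enzyme (-0.38, limma adjusted p = 0.0452), Vegfa, an angiogenic factor (-0.36, limma adjusted p = 0.0403), and Eif2ak2, which encodes the interferon-induced kinase PKR (-0.35, limma adjusted p = 0.0428). None of these 7 calls held when any of the 4 libraries was left out, and those of Mthfd2, Vegfa and Eif2ak2 were also lost under both other scalings (adjusted p up to 0.204 over all alternatives of these 3 genes, limma). Without a filter on low values, 6 of the 7 calls were lost, that of Jun being the exception. With the replicate block the call of Hspa9 and that of Atf3 were lost as well as those of these 3 genes, and with the plain prior that of Hspa9 and of these 3.

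By role, the counts of calls in Ly6G+ cells stand against 2.46% of all genes called higher and 4.24% called lower, and each list is small. The 4 eIF2alpha kinases gave 1 fall, and Eif2ak1, which encodes HRI, was at 33.6 and 31.5 TPM with Mdivi-1 and at 31.8 and 32.3 TPM with vehicle (log2 change 0.02, limma adjusted p = 0.878). The 8 genes of eIF2 and its exchange factor eIF2B gave 0 calls, as did the 4 phosphatase genes. Of 8 genes of the mitochondrial relay and mitochondrial protein quality, Hspa9 alone passed. The relay genes Oma1 (0.36, limma adjusted p = 0.197) and Dele1 (-0.35, limma adjusted p = 0.128) did not. Of 8 partner factors 2 fell, and Cebpb was at 0.47 (limma adjusted p = 0.105) and Cebpd at -0.41 (limma adjusted p = 0.0731). Of 6 tested genes of serine, glycine and folate metabolism 1 fell, Mthfd2. Of 10 tested growth, death and secreted output genes 1 rose, Ddit4, and 1 fell, Vegfa. The 7 tested amino acid transporters, the 7 tested enzymes of proline, cysteine and alanine and the 7 autophagy genes gave 0 calls, with transporters at a median of -0.16. Fgf21 was listed at 0 in every library, and Gdf15, another secreted marker of mitochondrial stress, did not reach 1 TPM in any.

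Markers of blood cells, those of the sorted neutrophils included, moved in the same libraries. The summed level of 9 early B cell markers was 22.1 and 22.9 TPM with Mdivi-1 and 141 and 143 TPM with vehicle, and all 9 fell. Megakaryocyte markers summed to 126 and 109 TPM with Mdivi-1 and to 275 and 273 TPM with vehicle (8 of 9 fell), basophil and mast cell markers to 166 and 175 TPM with Mdivi-1 and to 496 and 504 TPM with vehicle (6 of 6 fell), and dendritic cell markers to 462 and 447 TPM with Mdivi-1 and to 801 and 843 TPM with vehicle (6 of 8 fell). Erythroid markers summed to 2500 and 2540 TPM with Mdivi-1 and to 3190 and 3280 TPM with vehicle (4 of 9 fell). The 7 progenitor markers summed to 1700 and 1650 TPM with Mdivi-1 and to 1640 and 1710 TPM with vehicle, a sum made up mostly of Mpo, Elane and Prtn3. Of these 7, 1 fell, Cd34, at 46.6 and 47.6 TPM with Mdivi-1 and 63.2 and 60.2 TPM with vehicle, and Kit was at 9.52 and 8.73 TPM with Mdivi-1 and 10.4 and 14.1 TPM with vehicle (limma adjusted p = 0.223). Neutrophil markers, those of the sorted cells, moved both ways. Retnlg (log2 change 0.51) and Mmp8 (0.30) rose and Camp (-0.65), Ngp (-0.52) and Ltf (-0.50) fell, out of 8. The rises in the remaining lists were those of Jchain (1.0), Gzma (1.78) and F13a1 (0.40), and the falls Mzb1 (-1.84) and Ly6c2 (-0.43). In bulk samples, fewer cells of a type and less RNA per cell cannot be told apart. The part of these cells in the values of Asns, Atf4, Atf5, Trib3, Chac1, Ddit4, Atf3 and Jun was not tested.

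In HSCPs each arm held 1 library, so there is no test and no error. Asns was the only member past 2-fold at a mean of at least 10 TPM, with 20.3 TPM with Mdivi-1 and 8.32 TPM with vehicle (log2 ratio 1.19). Over all 7987 genes at that level, 0.388% were past 2-fold higher and 0.538% lower, 0.927% in either direction. Phgdh was at 227 TPM with Mdivi-1 and 161 TPM with vehicle (log2 ratio 0.49), and Psat1 at 143 TPM with Mdivi-1 and 100 TPM with vehicle (0.50). Atf5 was at 33.6 TPM with Mdivi-1 and 26.2 TPM with vehicle (0.35). Atf4 itself was at 193 TPM with Mdivi-1 and 185 TPM with vehicle (0.06), Ddit3 at 23.7 TPM with Mdivi-1 and 25.5 TPM with vehicle (-0.10), and Ppp1r15a at 9.3 TPM with Mdivi-1 and 10.1 TPM with vehicle (-0.10). Sesn2 was at 5.24 TPM with Mdivi-1 and 6.92 TPM with vehicle (-0.34). Trib3 (1.78 TPM with Mdivi-1 and 1.9 TPM with vehicle) and Chac1 (3.35 TPM with Mdivi-1 and 2.98 TPM with vehicle) were near the bottom in both libraries.

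Around Asns, the genes of serine, glycine and folate metabolism had log2 ratios above 0 in 6 of 6 cases in HSCPs (median 0.39), as did all 7 enzymes of proline, asparagine, cysteine and alanine synthesis at a mean of 1 TPM or more (median 0.19) and all 8 mitochondrial relay and stress genes (median 0.24), where 54.5% of all genes at that level were above 0. Of the 71 further pathway genes at a mean of 1 TPM or more, 48 were above 0. Among them were 7 of 8 genes of eIF2 and eIF2B and all 4 phosphatase genes, but only 3 of 11 growth, death and secreted output genes. Shmt2, the mitochondrial serine hydroxymethyltransferase, was at 183 TPM with Mdivi-1 and 132 TPM with vehicle. Ddit4 was at 18.5 TPM with Mdivi-1 and 8.32 TPM with vehicle (log2 ratio 1.06), and was the only pathway gene besides Asns past 2-fold at that level. Autophagy genes were above 0 in 1 of 7 cases (median -0.17), with Map1lc3b, which encodes the LC3B coat of autophagosomes, at 38.6 TPM with Mdivi-1 and 51.0 TPM with vehicle. Megakaryocyte markers summed to 175 TPM with Mdivi-1 and 354 TPM with vehicle, eosinophil markers to 366 TPM with Mdivi-1 and 658 TPM with vehicle, dendritic cell markers to 1020 TPM with Mdivi-1 and 1630 TPM with vehicle, and neutrophil markers to 86300 TPM with Mdivi-1 and 95400 TPM with vehicle. Early B cell markers summed to 49.2 TPM with Mdivi-1 and 77.5 TPM with vehicle, and basophil and mast cell markers to 197 TPM with Mdivi-1 and 265 TPM with vehicle. Progenitor markers summed to 13700 TPM with Mdivi-1 and 12900 TPM with vehicle, mostly from Mpo, Elane and Prtn3. Kit was at 64.9 TPM with Mdivi-1 and 72.2 TPM with vehicle, Cd34 at 252 TPM with Mdivi-1 and 289 TPM with vehicle, and the part of this makeup in the values was not tested.

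**Figure D2:**
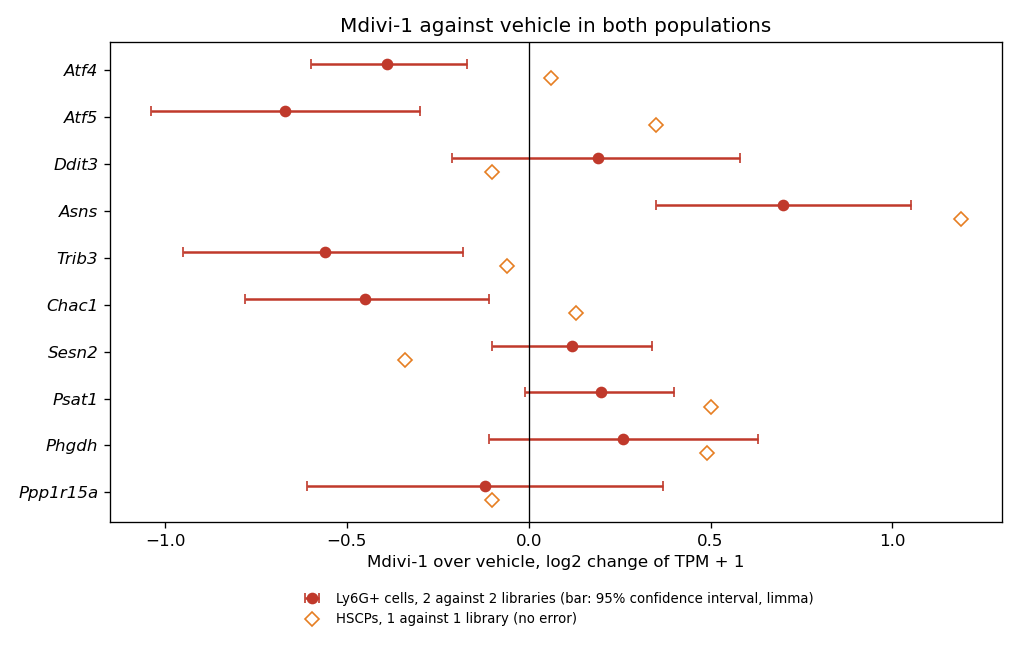
Log2 change of TPM + 1, Mdivi-1 over vehicle (horizontal axis), for each gene in Ly6G+ cells (filled circles with the 95% confidence interval of limma, 2 against 2 libraries) and in HSCPs (open diamonds, 1 against 1 library, no error). Asns lies on the higher side in both populations, at 0.70 and 1.19, and Atf4 and Atf5 lie below 0 in Ly6G+ cells and above 0 in HSCPs.

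Whether the treatment acted differently in the populations was tested directly, as the Ly6G+ change minus the HSCP change, with each lone HSCP library assumed to vary like the Ly6G+ libraries. No member passed, nor did any of the 12338 genes tested (0.0% called; limma), while 1398 genes (11.3%) and 3 members had an unadjusted p under 0.05. Those were Atf5 (-1.02, 95% confidence interval -1.68 to -0.37; limma adjusted p = 0.31), Atf4 (-0.44, -0.81 to -0.07; limma adjusted p = 0.391) and Sesn2 (0.46, 0.04 to 0.89; limma adjusted p = 0.421). For Asns the difference was -0.49 (-1.09 to 0.10; limma adjusted p = 0.494). Over the alternatives the call count of this test ranged between 0 and 6 genes, and 0 members passed in any.

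Between the populations the members were called about as often as genes in general. Phgdh, Psat1, Asns, Ppp1r15a and the factors Atf4 and Atf5 were called lower in Ly6G+ cells than in HSCPs, whereas Sesn2 and Trib3 were called higher. The calls of Asns, Ppp1r15a, Trib3 and above all Atf5 did not hold in every alternative. Beside the sorted markers, 8 of 9 erythroid and 6 of 8 dendritic cell markers fell in Ly6G+ cells and 6 of 8 monocyte markers rose. Of 4 tested eosinophil markers 3 fell. Their list summed to 61.9 to 72.1 TPM in Ly6G+ libraries, against 366 and 658 TPM in HSCPs with Mdivi-1 and vehicle. Of 9 megakaryocyte markers 5 fell and 2 rose, and of 6 basophil and mast cell markers 3 rose and 2 fell. The part of all these cells in these results was not tested. Of 10 members 2 rose and 6 fell in Ly6G+ cells (limma, all 6 libraries, treatment as a covariate), against 22.2% of all genes called higher and 50.3% lower, 72.4% in either direction, so the members' shares were near those of all genes. The libraries of the populations did not overlap for 2 higher and 5 lower members, and for 23.5% of all genes on the higher and 52.5% on the lower side. The scaling matters for these shares. Of the calls on deposited TPM 30.6% were higher, against 49.1% with median-of-ratios and 46.5% with upper-quartile scaling, and the all-gene median was -0.35 on deposited TPM, -0.02 with median-of-ratios and -0.07 with upper-quartile scaling. Each member's change is followed by its value relative to the -0.35 of deposited TPM.

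Phgdh fell most. Its level was 48.2, 37.3, 37.9 and 32.6 TPM in the Ly6G+ libraries (both Mdivi-1 before both vehicle libraries), against 227 and 161 TPM in HSCPs with Mdivi-1 and vehicle, and the populations did not overlap. The log2 change was -2.28 (95% confidence interval -2.58 to -1.98; limma adjusted p = 1.84e-05), which is -1.93 relative to the median of all genes. Psat1 was between 36.8 and 45.3 TPM in Ly6G+ libraries, against 143 and 100 TPM in HSCPs (log2 change -1.49, -1.14 relative to the median; limma adjusted p = 2.85e-05). Atf4 was between 86.1 and 125 TPM in Ly6G+ libraries, against 193 and 185 TPM in HSCPs (-0.86, -0.52 relative to the median; limma adjusted p = 0.000576). Sesn2 went the other way, with 14.7 to 17.1 TPM in Ly6G+ libraries, against 5.24 and 6.92 TPM in HSCPs (1.28, 1.63 relative to the median; limma adjusted p = 0.000159). The calls of Phgdh, Psat1, Atf4 and Sesn2 held under all 15 alternatives run for each.

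The other calls were less secure. Asns, at 5.34 to 10.6 TPM in Ly6G+ libraries and 20.3 and 8.32 TPM in HSCPs, overlapped between the populations. Its log2 change of -0.78 (-0.44 relative to the median; limma adjusted p = 0.00316) was -0.54 without Mdivi-1 HSCPs (limma adjusted p = 0.0403) and -1.03 without vehicle HSCPs, and did not pass without the treatment covariate (limma adjusted p = 0.106). Trib3, at 2.22 to 4.37 TPM in Ly6G+ libraries and 1.78 and 1.9 TPM in HSCPs, rose by 0.55 on the log2 scale (0.90 relative to the median; limma adjusted p = 0.0221). Without Mdivi-1 HSCPs it was 0.80 (limma adjusted p = 0.0174). The call was lost without vehicle HSCPs (0.30, limma adjusted p = 0.22), without Ly6G+ Mdivi-1 replicate 1 (0.55, limma adjusted p = 0.0504), without Ly6G+ vehicle replicate 2 (0.48, limma adjusted p = 0.0525) and without the treatment covariate (0.55, limma adjusted p = 0.0681). Ppp1r15a, at 4.48 to 6.54 TPM in Ly6G+ libraries and 9.3 and 10.1 TPM in HSCPs, fell by 0.68 on the log2 scale (-0.34 relative to the median; limma adjusted p = 0.00667), a call lost without Mdivi-1 HSCPs (-0.68, limma adjusted p = 0.0536) and under median-of-ratios scaling (-0.36, adjusted p = 0.0712 with limma).

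Atf5, at 12.2 to 23.7 TPM in Ly6G+ libraries and 33.6 and 26.2 TPM in HSCPs, changed by -0.68 (-0.34 relative to the median; limma adjusted p = 0.0416) and was lost in 10 of 15 alternatives. Without Mdivi-1 HSCPs its change was -0.17 (limma adjusted p = 0.44), in vehicle libraries alone also -0.17 (limma adjusted p = 0.195), and without vehicle HSCPs -1.19 (limma adjusted p = 0.00302). It was further lost without Ly6G+ Mdivi-1 replicate 1 (-0.69, limma adjusted p = 0.0832) or replicate 2 (-0.52, limma adjusted p = 0.0537) and without Ly6G+ vehicle replicate 1 (-0.74, limma adjusted p = 0.0634). Ddit3 and Chac1 were not called. Ddit3 had 19.8 to 27.7 TPM in Ly6G+ libraries and 23.7 and 25.5 TPM in HSCPs, a log2 change of 0.01 (95% confidence interval -0.33 to 0.34; 0.35 relative to the median; limma adjusted p = 0.968). Chac1 had 2.67 to 4.28 TPM in Ly6G+ libraries and 3.35 and 2.98 TPM in HSCPs (0.09, 95% confidence interval -0.30 to 0.49; 0.44 relative to the median; limma adjusted p = 0.619). Both directions depend on the libraries included.

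Of the further pathway genes, 19 of 71 tested were higher in Ly6G+ cells than in HSCPs and 37 lower. These are 26.8% and 52.1% of them, close to the 22.2% and 50.3% of all genes, and no test compared the lists by role. All 8 genes of eIF2 and eIF2B fell (median log2 change -1.05), among them Eif2b3 (-1.37), Eif2b1 (-1.21), Eif2s1 (-1.15) and Eif2s3x (-1.06), of which Eif2s3x shares reads with related sequences (64.4% unique 31-mers). The fall of Eif2b4 was lost under median-of-ratios scaling (adjusted p = 0.0862 with limma). All 6 tested genes of serine, glycine and folate metabolism fell (median -1.64), including Shmt2 (-2.02), Mthfd1 (-1.90), Psph (-1.66) and Shmt1 (-1.62). The fall of Mthfd2 was lost under both other scalings, without Mdivi-1 HSCPs and in vehicle libraries alone (-0.38 on deposited TPM, limma adjusted p = 0.0131, and up to 0.831 over its alternatives). Of 7 tested enzymes of proline, cysteine and alanine 6 fell, with Aldh18a1 (-1.87) and Pycr1 (-1.73) first, and the fall of Gpt2 (-0.66) was lost without vehicle HSCPs (limma adjusted p = 0.0645).

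The counts of the following lists stand against 22.2% of all genes called higher and 50.3% called lower, and each list is small. Mitochondrial stress genes were lower in Ly6G+ cells in 6 of 8 cases, namely the protease genes Clpp (-1.89) and Lonp1 (-1.40), the chaperone genes Hspa9 (-1.70), Hspd1 (-1.63) and Hspe1 (-1.60), and the relay gene Dele1 (-1.07), and Yme1l1 alone rose (0.31), a call lost in vehicle libraries alone (limma adjusted p = 0.0505). Hspd1, with 46.9% unique 31-mers, and Hspe1, with 69.5%, share reads with related sequences. Amino acid transporters were split, with 5 of 8 lower and 2 higher. The falls were led by the glutamine carrier gene Slc1a5 (-1.72), the leucine carrier gene Slc7a5 (-1.47), Slc7a1 (-1.23) and Slc3a2 (-1.11), the partner of Slc7a5. The rises were in the cystine carrier gene Slc7a11 (1.28) and Slc38a2 (0.61). Slc7a11 stood at 3.92 to 4.65 TPM in Ly6G+ libraries and at 1.16 and 1.22 TPM in HSCPs. The partner factors were higher in 6 of 8 cases and lower in 0, among them Atf3 (1.01), Jun (0.96), Cebpd (0.73) and Cebpb (0.67), while the rise of Cebpg (0.41) was lost without Mdivi-1 HSCPs and in vehicle libraries alone. Of the eIF2alpha kinases, Eif2ak3 (0.60), which encodes PERK, and Eif2ak2 (0.47) rose, Eif2ak4 (-0.88), which encodes GCN2, fell, and Eif2ak1 was not called (-0.01, limma adjusted p = 0.895). In the phosphatase arm Ppp1r15b rose (0.61), opposite to its paralog Ppp1r15a. Autophagy genes were higher in 4 of 7 cases, with Map1lc3b at 0.84, and lower in 2, with Gabarapl1 at -1.82. The fall of Atg12 (-0.36) was lost under both other scalings (adjusted p up to 0.957 with limma), and the rise of Ulk1 (0.37) without Mdivi-1 HSCPs and in vehicle libraries alone (up to 0.12). Of 11 tested growth, death and secreted output genes, 2 were higher and 2 lower. Sesn1 (-0.85) and Ddit4 (-0.54) fell, the latter a call lost under median-of-ratios scaling, without the treatment covariate and in vehicle libraries alone. Eif4ebp1 rose (0.25), a call lost without vehicle HSCPs and in vehicle libraries alone. Gadd45a, a growth arrest gene, had the largest rise among these lists, with 74.3 to 95 TPM in Ly6G+ libraries and 23.7 and 24.6 TPM in HSCPs (1.83, limma adjusted p = 2.16e-05).

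**Figure D3:**
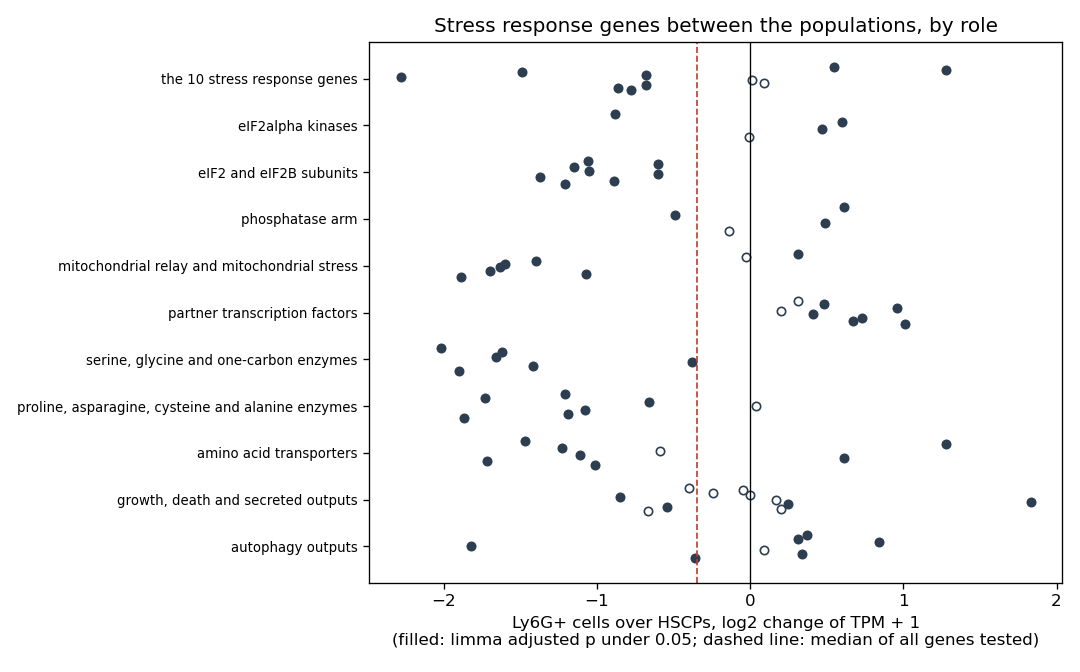
Log2 change of TPM + 1, Ly6G+ cells over HSCPs (horizontal axis), for the 10 genes and 10 lists of further pathway genes (rows). Filled points have a limma adjusted p under 0.05, open points do not, and the dashed line marks the median of all genes tested (-0.35). Most enzymes of amino acid synthesis and all eIF2 and eIF2B subunits lie left of that line, and partner transcription factors lie right of 0.

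Across the 6 libraries the members did not vary as a block. Pearson's r with Atf4 on the log2 scale was 0.926 for Ppp1r15a, 0.914 for Atf5, 0.877 for Phgdh and 0.856 for Psat1, but 0.416 for Asns, 0.138 for Chac1, -0.102 for Ddit3, -0.419 for Trib3 and -0.935 for Sesn2. Phgdh and Psat1 followed each other most closely (r = 0.992), and Trib3 and Chac1 were at 0.776. These values rest on 6 libraries that fall into 2 populations, and are descriptions. Of 7688 other genes at a mean of at least 10 TPM, 33.3% had r of 0.9 or more with Atf4, so a high value is common here. The 5 closest to Atf4 were Zfp622, Deaf1, Rexo1, Zmiz2 and Hint2, each with r = 0.999.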

How the data were processed

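RNA was sequenced in 6 libraries of 4 groups. The submitters' processing notes name bcl2fastq, CASAVA 1.8, kallisto and the build mm10. For the version of kallisto, its annotation and its strand setting, the entry is: not given in the sources used here. The deposited values were read as TPM, since they hold decimals and library sums run between 963243.1 and 979168.3. Depth is unknown. Symbols and positions came from GENCODE M21 (27458 of 28987 genes named), promoter windows from RefSeq.

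Values were tested as log2(TPM + 1) in limma (version 3.58.1; R 4.3.3) under a trended, robust prior. A gene entered when 2 or more libraries reached 1 TPM, with Benjamini-Hochberg adjustment over all genes. Such changes understate those of low genes. Residual degrees of freedom were 2 for treatment in Ly6G+ cells, 3 between populations and 2 for the difference. HSCP arms have 1 library each and no test. In every pair of libraries 0 genes at 1 TPM or more held identical values. All 10 members passed the filter on low values. The script was tested on simulated data. The members and lists were chosen with earlier results of these data known. Named beside the members were up to 4 genes per list past a test, by size, then the most expressed, with Dnm1l, Kit and Ly6g as checks and the 5 genes closest to Atf4; other genes, such as Fgf21, Gdf15, Oma1, Eif2ak1, Atg12, Ulk1, Cebpg, Gpt2, Yme1l1, Lonp1, Slc3a2, Slc38a2 and single cell type markers were added after their values were seen. The labels number the Ly6G+ libraries 1 and 2 in both arms, and alternatives included that block, other scalings, pseudocounts, filters and leaving out each library.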

Additional observations from a re-analysis of the deposited data

How the results depend on the processing

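The 789 calls under treatment in Ly6G+ cells (36.8% of them higher) became 218 without a filter, 346 with a plain prior, and 22 to 279 when 1 library was left out (22 without vehicle replicate 2, 42 without vehicle replicate 1, 212 without Mdivi-1 replicate 2 and 279 without Mdivi-1 replicate 1). The share higher was 51.8% after median-of-ratios and 50.3% after upper-quartile scaling. The 0 members called there became 3 with a filter of 5 TPM (Asns, Atf4 and Atf5; fewer genes tested), 1 under median-of-ratios and 1 under upper-quartile scaling (Asns), and 0 to 1 when 1 library was left out. Between populations the 8 members called became 5 without the treatment covariate. The 0 genes called for the difference of effects became 1 with a pseudocount of 0.1, 1 with 0.5, 6 with the 5 TPM filter, and 0 to 2 when 1 Ly6G+ library was left out. Directions turned only for values near 0: Ddit3 and Ppp1r15a under treatment (leave-one-out ranges -0.02 to 0.40 and -0.34 to 0.11), Ddit3 and Chac1 between populations (-0.14 to 0.15 and -0.19 to 0.38; Ddit3 at -0.14 in vehicle libraries alone), and Ppp1r15a in the difference (0.07 and 0.06 under the 2 scalings, -0.23 to 0.21 with 1 library left out). Apart from what the settings' construction shows, the cause was not tested.

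The replicate numbers pair the Ly6G+ libraries only by name: the differences between replicates 1 and 2 of the arms correlated at -0.031 over 11775 genes. With the replicate block the treatment calls numbered 325, with 0 members, and the difference calls 2. Replicates of 2, and no read totals, limit what can be detected.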
